A study of Mus musculus with 12 samples.

Results

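The 10 genes of insulin signalling and glucose production described here were measured in the livers of 12 male C57BL/6 mice: Insr, Irs1, Irs2, Foxo1, Ppargc1a, Trib1, Pck1, Fbp1, G6pc (now also called G6pc1) and Slc2a2. The members were chosen by name, and all 10 of the 10 were measured and passed the filter on dim probesets, among 11899 genes tested and 18193 genes named on the array. The livers came from 6 mice that drank water with a low dose of penicillin once weaned, and from 6 control mice given no antibiotic. Both groups had free access to food and water under a cycle of 12 h light and 12 h dark, and the livers were taken after 7 weeks of intervention. Each liver was measured on 1 Affymetrix array, and levels are given as log2 of the deposited intensity, so that a difference of 1 is a doubling. The dose of penicillin, the cages, the time since the last meal and the hour at which livers were taken are not stated in the labels. Mice of 1 cage would not be independent, and p-values then measure only the spread between these arrays.

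In liver, insulin acts through its receptor, whose kinase phosphorylates the adaptor proteins IRS1 and IRS2 and so turns on the kinase AKT. AKT keeps the transcription factor FOXO1 out of the nucleus, and with FOXO1 gone the genes of glucose production are transcribed less. In fasting, glucagon and glucocorticoids do the opposite, partly through the coactivator encoded by Ppargc1a. Many of these genes also follow the time of day and the last meal.

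Some arrays stood apart in ways that touch these genes. Dbp, an output gene of the circadian clock, ran over a 48.7-fold range and was at 11.96 to 12.05 on penicillin 1, penicillin 5, penicillin 6 and control 6, against 6.44 to 10.68 on the other 8 arrays. Fos, an immediate early gene induced within minutes by many stimuli, was at 11.29, 11.33 and 11.85 on control 1, control 3 and control 5, against 5.84 to 7.46 on the other 9. The differences of the 10 genes are therefore given with all arrays, without the Dbp-high arrays and without the Fos-high arrays. Genes that define hepatocytes were bright on every array (Apoa1, the main protein of high-density lipoprotein, at 14.77 to 14.81 in penicillin livers and 14.80 to 14.85 in control livers). Of 7 measured hepatocyte markers 6 were lower in penicillin livers (beside 47.2% of all genes), with 0 passed. Their differences ran from -0.24 to 0.0008, with a median of -0.03. Some markers of other cells also stood lower in penicillin livers, with none past the threshold. The 3 of 5 listed neutrophil markers that were measured averaged -1.11 to -0.35 in penicillin livers and -0.23 to 1.66 in control livers, as log2 deviations from their mean over all arrays, and 4 of 6 cholangiocyte markers averaged -0.53 to 0.08 in penicillin livers and 0.07 to 0.27 in control livers. The neutrophil average rested mostly on S100a8 and S100a9, which differed by -1.94 and -1.63, against -0.24 for Csf3r. The part of these cells in the results below was not tested. In whole tissue, fewer cells of a type and less RNA per cell cannot be told apart.

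The comparison of penicillin with control livers asked whether low-dose penicillin went with a change in these genes. No member passed: limma called 0 of the 10 at an adjusted p under 0.05, as it called 0 of all 11899 genes (0.0%), and the members' adjusted p-values ran from 0.571 to 0.997. At an unadjusted p under 0.05 it found 1 of the 10 members, Irs2, beside 950 of all genes (7.98%), a share near that background. Of the members 6 were lower and 4 higher in penicillin livers, while 47.2% of all genes were lower. The members' median difference was -0.14 on the log2 scale, beside 0.01 over all genes. The groups overlapped for all 10 members, while 0.412% of all genes had groups that did not overlap.

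**Figure D1:**
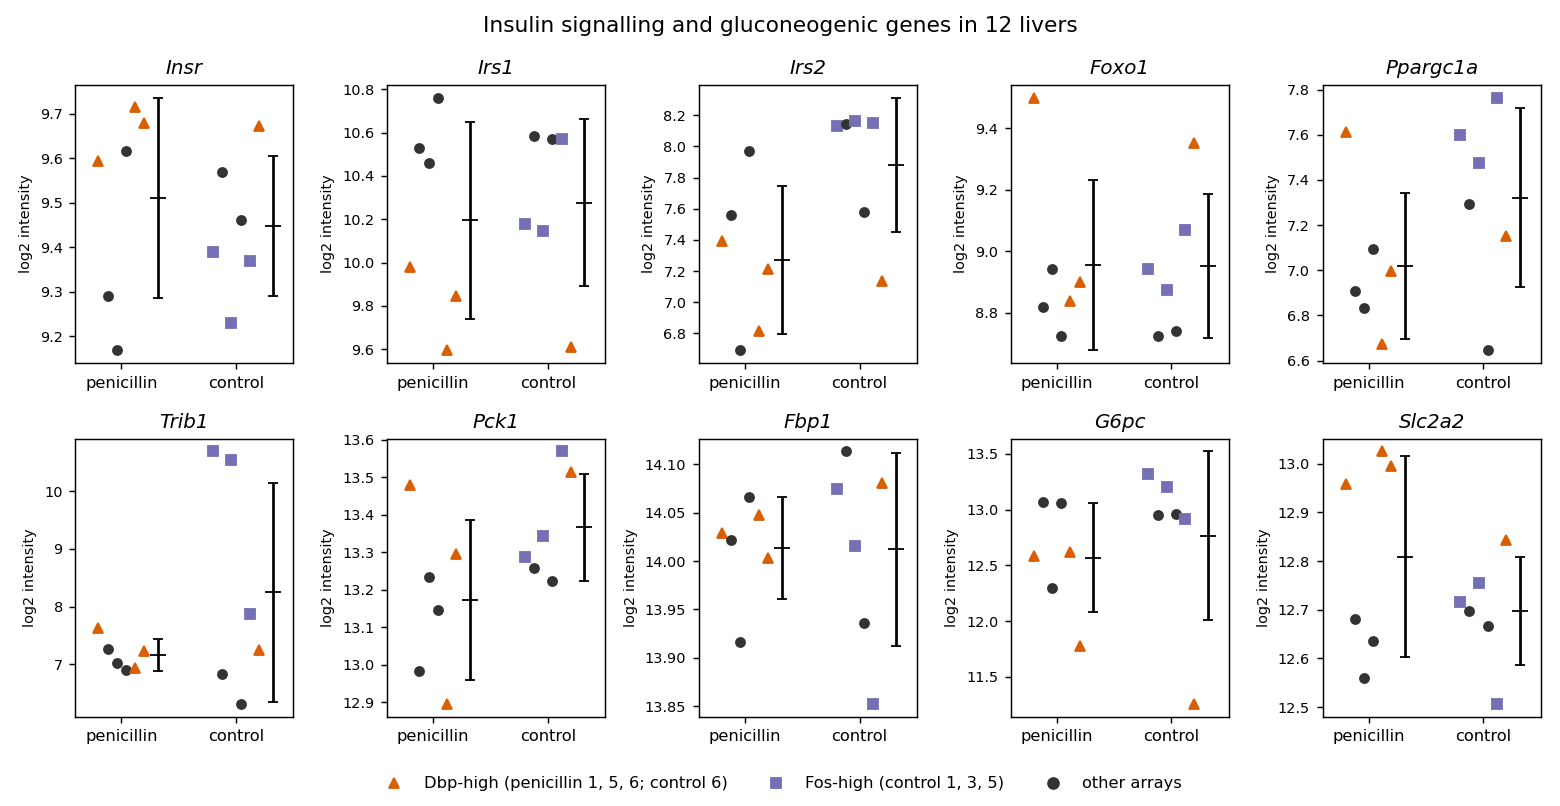
Log2 intensity of the 10 genes on each of the 12 arrays, penicillin left and control right in each panel. Bars show the mean and SD of 6 arrays, and the shape and colour of a point mark the Dbp-high and Fos-high arrays. The groups overlap in every panel; Irs2 has the smallest unadjusted p, and Trib1 spans 6.31 to 10.69 in control livers.

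Insr (probeset 1434446_at), which encodes the insulin receptor, was at 9.17, 9.61 and 9.72 in penicillin livers (lowest, median and highest), against 9.23, 9.42 and 9.67 in control livers. The ranges of both groups nearly coincided. The difference was 0.06 (SE 0.11, 95% interval -0.17 to 0.29; limma, adjusted p = 0.923), and its sign changed without the Dbp-high arrays (-0.04) or the Fos-high arrays (-0.06).

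Irs1 (1423104_at), an adaptor that the receptor phosphorylates, was at 9.59, 10.22 and 10.76 in penicillin livers, against 9.61, 10.38 and 10.58 in control livers. Its difference of -0.08 (SE 0.22, 95% interval -0.55 to 0.39; limma, adjusted p = 0.955) lay well within the spread between arrays. It turned to 0.17 without the Dbp-high arrays and was -0.06 without the Fos-high arrays.

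Irs2 (1443969_at), the adaptor whose transcription FOXO1 is known to raise, was at 6.69, 7.30 and 7.97 in penicillin livers, against 7.14, 8.14 and 8.16 in control livers. All 6 penicillin livers lay below the control median, while control 4 (7.58) and control 6 (7.14) reached into the penicillin range. The means were 7.27 ± 0.48 in penicillin livers and 7.88 ± 0.43 in control livers (SD, n = 6 each), a 1.53-fold lower level with penicillin (log2 difference -0.61, SE 0.23, 95% interval -1.11 to -0.11). This had an unadjusted p of 0.0213 in limma, the 442nd smallest of 11899, and did not pass over all genes (adjusted p = 0.571). A two-sided exact permutation test on Irs2 alone, over the 924 ways to divide the arrays, gave p = 0.0519 (adjusted p = 0.666 over all genes). The difference was -0.63 (95% interval -1.21 to -0.04) without the Dbp-high arrays and -0.35 (95% interval -0.99 to 0.30) without the Fos-high arrays, all 3 of which were among the 4 arrays with the highest Irs2.

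Among the regulators of transcription, Foxo1 itself did not differ between the groups beyond their spread. Its brightest probeset (1416983_s_at, whose name ends as those of probesets that can read more than 1 transcript) was at 8.73, 8.87 and 9.50 in penicillin livers, against 8.73, 8.91 and 9.35 in control livers. The highest value of each group came from a Dbp-high array, penicillin 1 and control 6. The other Dbp-high arrays, penicillin 5 (8.84) and penicillin 6 (8.90), lay within the range of the arrays that were not Dbp-high (8.73 to 9.07). The difference was 0.0035 (SE 0.14, 95% interval -0.29 to 0.30; limma, adjusted p = 0.997), with -0.04 (95% interval -0.26 to 0.18) without the Dbp-high arrays and 0.01 (95% interval -0.40 to 0.43) without the Fos-high arrays. The array reads Foxo1 mRNA only, whereas insulin acts on the protein's place in the cell, which was not measured here.

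Ppargc1a (1456395_at), which encodes the coactivator PGC-1alpha, was at 6.67, 6.95 and 7.61 in penicillin livers, against 6.64, 7.38 and 7.77 in control livers. Of the penicillin livers 5 lay below the control median, and penicillin 1 lay near the top of the control range. The difference was -0.30 (SE 0.19, 95% interval -0.71 to 0.10; limma, adjusted p = 0.735), and the 5 probesets of the gene, all above the filter, gave -0.41 to -0.22. Without the Fos-high arrays, which were 3 of the 4 highest for Ppargc1a, it was -0.0089 (95% interval -0.46 to 0.44), and without the Dbp-high arrays -0.41 (95% interval -0.91 to 0.09).

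Trib1 (1424880_at), a pseudokinase that brings proteins such as the transcription factor C/EBPalpha to a ubiquitin ligase, varied most among the members. It was at 6.89, 7.13 and 7.63 in penicillin livers, against 6.31, 7.56 and 10.69 in control livers. Control 1 (10.69), control 3 (10.53) and control 5 (7.86) held the 3 highest values, while control 2, control 4 and control 6 lay at 6.31 to 7.25, within or below the penicillin range. The difference was -1.08 (SE 0.69, 95% interval -2.57 to 0.41; limma, adjusted p = 0.739). It turned to 0.37 (95% interval -0.10 to 0.83) without those 3 arrays and was -1.38 (95% interval -3.63 to 0.86) without the Dbp-high arrays.

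The enzymes of glucose production act from oxaloacetate to free glucose. Pck1 (1423439_at), which encodes the cytosolic phosphoenolpyruvate carboxykinase of the first committed step, was at 12.89, 13.19 and 13.48 in penicillin livers, against 13.22, 13.32 and 13.57 in control livers. Penicillin 2, penicillin 4 and penicillin 5 lay below every control liver, and 5 of 6 lay below the control median. The difference was -0.19 (SE 0.10, 95% interval -0.41 to 0.02; limma, unadjusted p = 0.0733, adjusted p = 0.669), with -0.22 (95% interval -0.44 to 0.0043) without the Dbp-high and -0.16 (95% interval -0.45 to 0.13) without the Fos-high arrays. Its other probesets gave -0.46 (SE 0.26, 1439617_s_at) and -0.38 (SE 0.11, 1455209_at). The last of these was dimmer than the filter and not part of the test over genes.

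Fbp1 (1448470_at), which encodes fructose-1,6-bisphosphatase, was the steadiest member. It was at 13.92, 14.03 and 14.07 in penicillin livers, against 13.85, 14.04 and 14.11 in control livers, a difference of 0.0017 (SE 0.06, 95% interval -0.12 to 0.12; limma, adjusted p = 0.996). The difference was 0.0028 (95% interval -0.18 to 0.19) without the Dbp-high arrays and -0.03 (95% interval -0.18 to 0.12) without the Fos-high arrays. Its within-group SD was 0.08, smaller than that of all but 8.3% of genes.

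G6pc (1417880_at), the catalytic subunit of glucose-6-phosphatase that releases free glucose, was at 11.78, 12.60 and 13.07 in penicillin livers, against 11.26, 12.96 and 13.32 in control livers. Control 6 (11.26) lay far below the other 5 control livers, which ran from 12.92 to 13.32. The difference was -0.20 (SE 0.32, 95% interval -0.90 to 0.50; limma, adjusted p = 0.921). It was -0.26 (95% interval -0.67 to 0.15) without the Dbp-high arrays and 0.18 (95% interval -0.71 to 1.06) without the Fos-high arrays. Without control 6 alone it was -0.50 (95% interval -0.95 to -0.05, limma adjusted p = 0.425). Control 6 had the lowest G6pc and is the only Dbp-high control. Leaving it out alone therefore keeps Dbp-high arrays only among the penicillin livers.

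Slc2a2 (1449067_at) encodes GLUT2, the transporter through which glucose enters and leaves hepatocytes. It was at 12.56, 12.82 and 13.03 in penicillin livers, against 12.51, 12.71 and 12.84 in control livers. Penicillin 1, penicillin 5 and penicillin 6 lay above every control liver, and the other penicillin livers lay among the controls. The difference was 0.11 (SE 0.09, 95% interval -0.09 to 0.31; limma, adjusted p = 0.815), turned to -0.04 (95% interval -0.22 to 0.13) without the Dbp-high arrays, and was 0.07 without the Fos-high arrays.

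**Figure D2:**
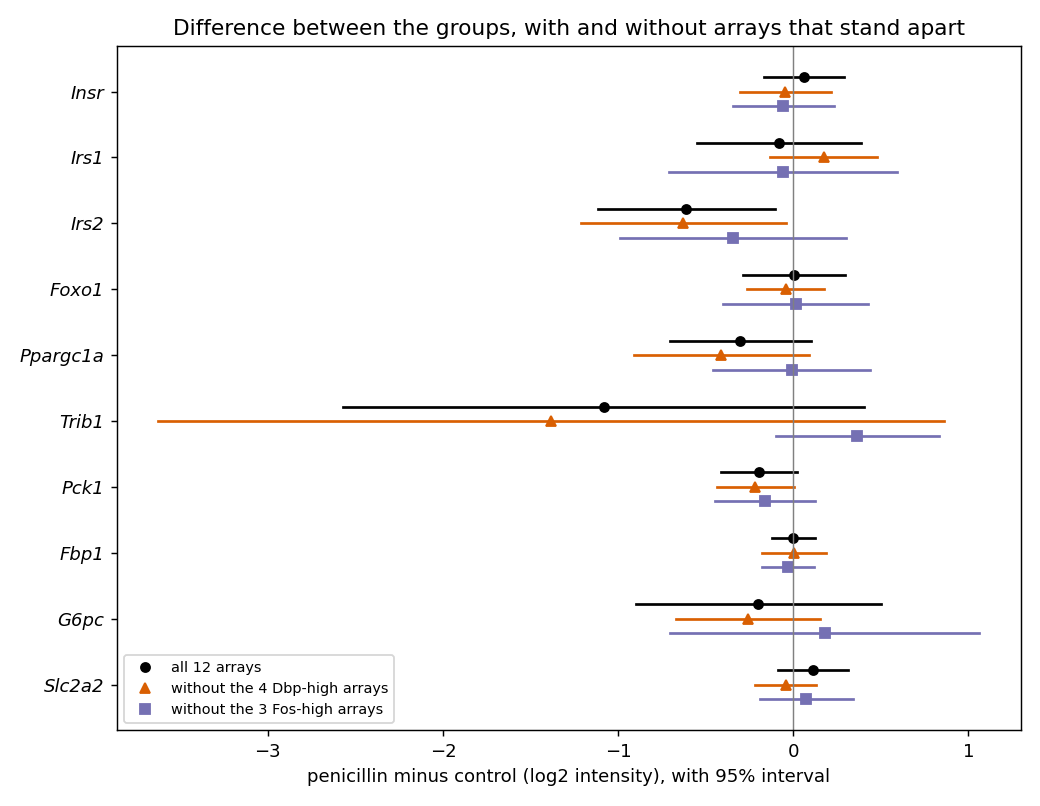
Penicillin minus control for each gene in log2 intensity, with the 95% interval from limma, for all 12 arrays, without the 4 Dbp-high arrays and without the 3 Fos-high arrays. The Irs2 interval lies below 0 with all arrays and without the Dbp-high arrays and spans 0 without the Fos-high arrays, and Trib1 changes sign without the Fos-high arrays.

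Across the 12 arrays, some members stood apart on the arrays with the highest Dbp. Penicillin 1, penicillin 5, penicillin 6 and control 6, the Dbp-high arrays, held the 4 lowest values of Irs1, at 9.98, 9.59, 9.85 and 9.61, against 10.14 to 10.76 on the other 8 arrays. The same 4 arrays held the 4 highest values of Slc2a2, at 12.96, 13.03, 13.00 and 12.84, against 12.51 to 12.75 on the others. Among all genes 1.77% had their 4 lowest and 1.98% their 4 highest values on these arrays. Control 1 and control 3, the arrays with the next highest Dbp (10.62 and 10.68), had the next lowest Irs1 (10.18 and 10.14) and the next highest Slc2a2 (12.72 and 12.75). G6pc was at 12.58, 12.62 and 11.78 on penicillin 1, penicillin 5 and penicillin 6 and at 11.26 on control 6, against 12.30 to 13.32 on the others, with penicillin 3 the 1 other array below 12.9. Insr was at 9.59 to 9.72 on the Dbp-high arrays and at 9.17 to 9.62 on the others, which overlapped. On control 1 and control 3, the next in Dbp, G6pc was at 13.32 and 13.20, the highest values of all arrays. Insr was at 9.39 and 9.23 there, below all 4 Dbp-high arrays. Control 1 and control 3 are also Fos-high arrays. On them, a level that goes with Dbp cannot be told apart from one that goes with Fos. These values are a description of arrays known to differ in Dbp, and no test was made between them.

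**Figure D3:**
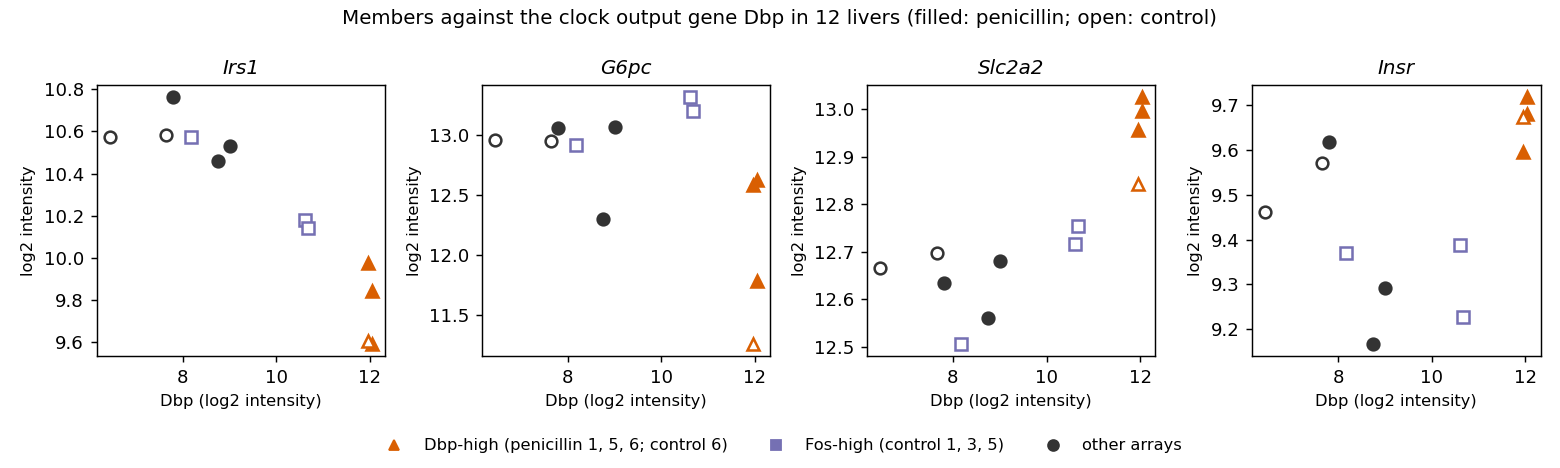
Log2 intensity of Irs1, G6pc, Slc2a2 and Insr against that of Dbp on each of the 12 arrays, filled for penicillin and open for control. The 4 arrays with Dbp near 12 hold the lowest Irs1 values and the highest Slc2a2 values, and both groups are among them.

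Of the 8 members with a promoter in the RefSeq table (build GRCm38.p6), only Irs1, Irs2 and G6pc held any of the motifs searched. Their promoters are shown for that reason. The windows run from 250 bases before the annotated start to 50 bases after it, and capitals mark the matches. The motifs, read on both strands, were GTAAACA, bound by FOXO proteins, TGTTTTG, an insulin response element, TGACGTCA, the cAMP response element, with its shorter form TGACGTC that the longer contains, TTATGTAA and TTACGTAA, D-boxes bound by DBP and its relatives, and CACGTG, the E-box bound by CLOCK and BMAL1.
Irs1 (chr1:82291390-82291689, minus strand): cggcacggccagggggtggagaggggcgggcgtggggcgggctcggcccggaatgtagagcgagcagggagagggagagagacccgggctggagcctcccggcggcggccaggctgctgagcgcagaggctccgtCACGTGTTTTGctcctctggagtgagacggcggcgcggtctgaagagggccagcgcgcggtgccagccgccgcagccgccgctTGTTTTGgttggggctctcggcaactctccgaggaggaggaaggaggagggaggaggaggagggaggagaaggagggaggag
Irs2 (chr8:11008880-11009179, minus strand): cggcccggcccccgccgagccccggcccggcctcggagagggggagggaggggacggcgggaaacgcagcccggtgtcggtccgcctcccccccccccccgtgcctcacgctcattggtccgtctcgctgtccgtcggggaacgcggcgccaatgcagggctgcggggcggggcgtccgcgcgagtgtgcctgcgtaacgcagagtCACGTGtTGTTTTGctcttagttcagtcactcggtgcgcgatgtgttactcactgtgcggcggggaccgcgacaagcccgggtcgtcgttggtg
G6pc (chr11:101367466-101367765, plus strand): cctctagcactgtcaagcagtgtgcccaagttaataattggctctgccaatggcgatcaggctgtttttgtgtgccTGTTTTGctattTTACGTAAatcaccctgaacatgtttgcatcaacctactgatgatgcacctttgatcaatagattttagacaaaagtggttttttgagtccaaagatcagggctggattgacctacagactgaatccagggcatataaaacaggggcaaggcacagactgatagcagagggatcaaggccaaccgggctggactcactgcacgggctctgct
In Irs1 the E-box began at -115, counted from the annotated start, and the insulin response letters at -111 shared bases with it; a further copy of them began at -32. In Irs2 the E-box began at -44 and the insulin response letters at -37. In G6pc the insulin response letters began at -174 and the D-box at -162. Of 32851 promoter windows of the same length, 7.15% held CACGTG, 6.28% held TGTTTTG and 0.119% held TTACGTAA. A match of letters is not evidence of binding, and the windows of Pck1, Slc2a2, Foxo1, Ppargc1a and Fbp1 held none of these letters. Only exact matches were counted, so absence of a match is not absence of a working element. The Pck1 window, for example, holds ttacgtca, a single letter away from TGACGTCA.

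Some members were also high on the Fos-high arrays, which is given as a description with no test. Control 1, control 3 and control 5 held the 3 highest Trib1 values, as they did for 2.02% of all genes. They also held 3 of the 4 highest values of Irs2, at 8.13, 8.16 and 8.15 beside 8.14 on control 2, and of Ppargc1a, at 7.60, 7.48 and 7.77 beside 7.61 on penicillin 1, the array with the lowest Fos; 4.9% of all genes had these arrays among their 4 highest. G6pc was at 13.32, 13.20 and 12.92 on them, against 12.95, 12.96 and 11.26 on control 2, control 4 and control 6, so that control 5, with the highest Fos, lay below control 2 and control 4. All 14 measured immediate early genes were lower in penicillin livers (beside 47.2% of all genes), with a median difference of -1.16. Without the Fos-high arrays 11 of 14 were lower (beside 53.1% of all genes), with a median of -0.20, and without the Dbp-high arrays all 14 were lower (beside 44.9% of all genes), with a median of -1.40. Fos was at 5.84, 6.09 and 6.79 in penicillin livers, against 6.53, 9.38 and 11.85 in control livers (difference -3.03, SE 0.91; limma, adjusted p = 0.511), and Klf6, an early response transcription factor, differed by -0.75 (SE 0.14; limma, adjusted p = 0.265). Without the Fos-high arrays Fos differed by -0.77 and Klf6 by -0.43, and without the Dbp-high arrays by -3.31 and -0.74. The 3 Fos-high arrays are all controls, and Fos reached at most 6.79 in penicillin livers. Leaving these arrays out sets 6 penicillin livers against control 2, control 4 and control 6 only. Such a comparison cannot tell what goes with high early genes apart from what goes with the group. The part of early genes in the members' differences was therefore not tested.

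**Figure D4:**
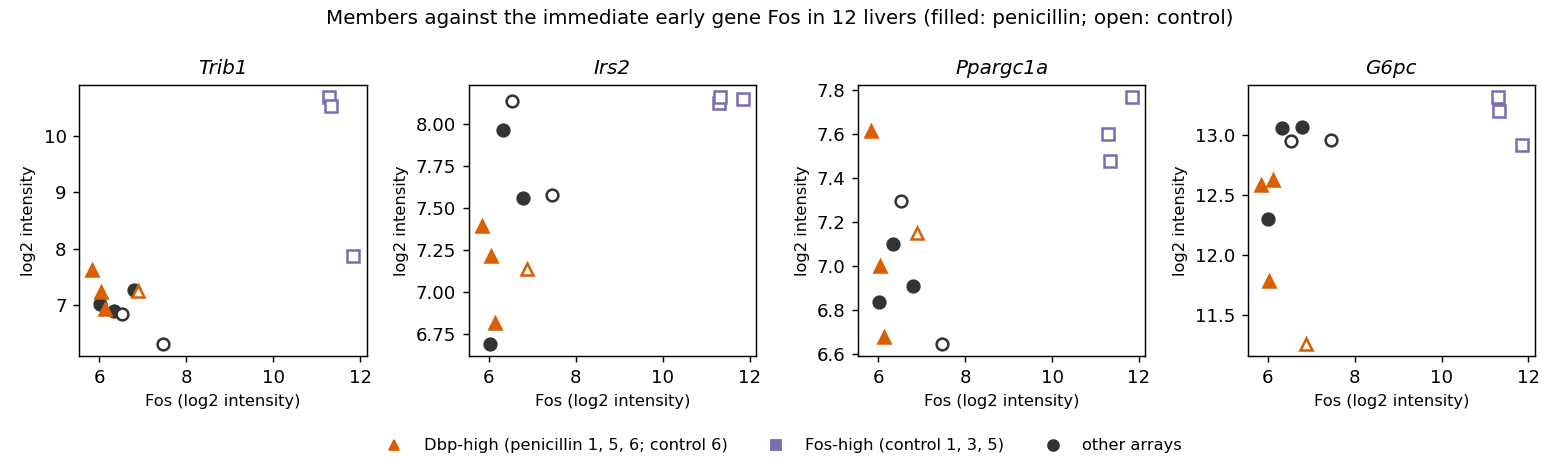
Log2 intensity of Trib1, Irs2, Ppargc1a and G6pc against that of Fos on each of the 12 arrays, filled for penicillin and open for control. The 3 Fos-high arrays are all controls; 2 of them hold Trib1 values above 10, and all 3 lie near the top for Irs2.

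The members were next compared with each other within the groups, on deviations from the group mean over 12 arrays. Of 45 pairs, 0 passed after Benjamini-Hochberg adjustment by Pearson's r or by Spearman's rho (100000 permutations within groups, two-sided), and 6 had an unadjusted p under 0.05 by Pearson's r. The lowest r was that of Irs1 and Slc2a2 (r = -0.87, permutation p = 0.00267, adjusted p = 0.0722; rho = -0.78, permutation p = 0.0132, adjusted p = 0.198). The r was -0.93 within penicillin livers, -0.80 within control livers and -0.85 without the 2 arrays farthest from the median of Irs1, but -0.45 without the Dbp-high arrays. The highest r was that of Foxo1 and Pck1 (r = 0.78, permutation p = 0.00321, adjusted p = 0.0722; rho = 0.75, permutation p = 0.0102, adjusted p = 0.198), with 0.76 within penicillin livers, 0.84 within control livers, 0.75 without the Dbp-high arrays, 0.80 without the Fos-high arrays and 0.63 without the 2 farthest. For Irs2 and G6pc the values were lower and did not pass either (r = 0.72, permutation p = 0.0166, adjusted p = 0.249; rho = 0.74, permutation p = 0.0117, adjusted p = 0.198), with 0.57 within penicillin livers, 0.86 within control livers, 0.80 and 0.65 without the Dbp-high and the Fos-high arrays and 0.85 without the 2 farthest. Pck1 and G6pc, the enzymes at the start and the end of the path, had a negative r that did not pass (r = -0.46, permutation p = 0.125, adjusted p = 0.349; rho = -0.55, permutation p = 0.0767, adjusted p = 0.333).

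**Figure D5:**
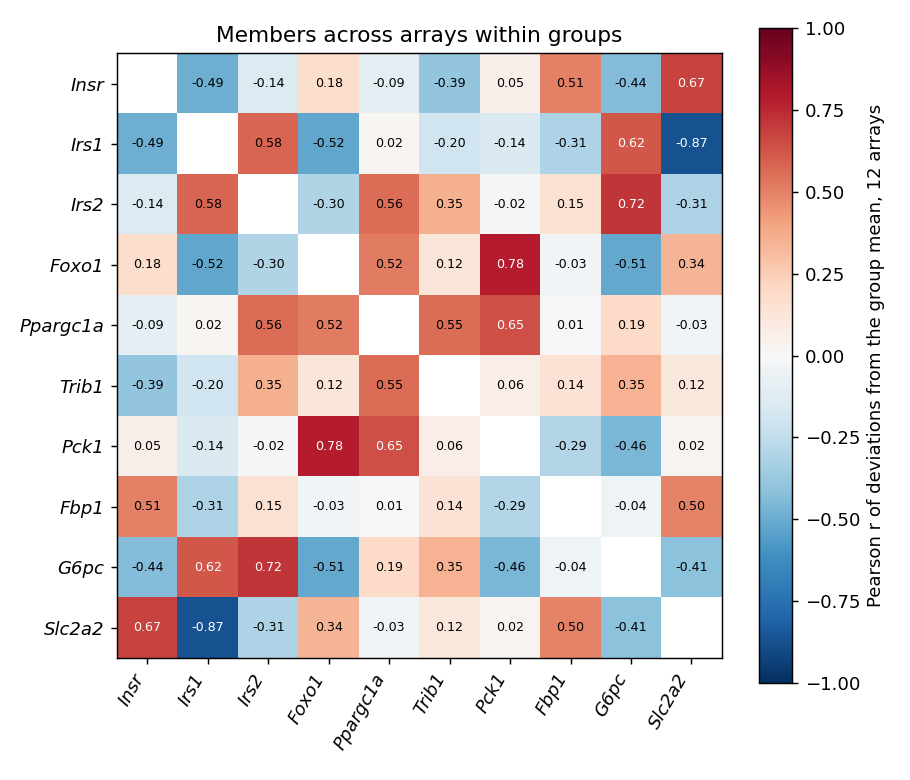
Pearson's r of each pair of the 10 genes over 12 arrays, on deviations of log2 intensity from the group mean. Irs1 and Slc2a2 have the lowest value (-0.87) and Foxo1 and Pck1 the highest (0.78).

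By the same measure, the most similar of the other 11889 genes were, for each member, described by r over 12 arrays. Irs1 was most like Pnrc1, a nuclear receptor coactivator (0.97), and Pnp, a purine nucleoside phosphorylase (0.97). Trib1 was most like the immediate early gene Btg2 (0.97) and Rnf39 (0.97), and Slc2a2 was most like Hook2 (0.95) and Ralgapa2 (0.94). Insr was most like Met, the receptor of hepatocyte growth factor (0.94), and Slc8b1 (0.94), and Foxo1 most like Dst (0.95) and Gne (0.92). Ppargc1a was most like H2ac19 (0.94) and Npff (0.91), G6pc most like Gmeb1 (0.93) and Gstt1 (0.93), and Irs2 most like Rsrc2 (0.92) and Cd83 (0.91). Fbp1 was most like Trim25 (0.92) and Pld4 (0.90), and Pck1 most like the complement gene C8b (0.92) and Fam234b (0.90). With so many genes searched, high values arise readily, and they are given as a description.

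The wider pathway showed the same lack of single calls. From insulin receptor to AKT, 18 of 32 measured genes were higher and 14 lower in penicillin livers (43.75% lower, beside 47.2% of all genes). Of these 0 passed, and the median difference was 0.01 (14 lower without the Dbp-high arrays and 16 without the Fos-high arrays). Over all genes 44.9% were lower without the Dbp-high arrays and 53.1% without the Fos-high arrays. Apart from Irs2, the smallest p-values belonged to Socs3, a cytokine-induced inhibitor of receptor signalling, at 6.77 ± 0.25 in penicillin livers and 7.73 ± 1.13 in control livers (SD, n = 6; difference -0.96, SE 0.42; limma, adjusted p = 0.602), and to Ptpn1, the phosphatase that acts on the insulin receptor (-0.17, SE 0.08, adjusted p = 0.647). The highest Socs3 value, 9.36, was that of control 6, without which Socs3 differed by -0.63 and Ptpn1 by -0.09. Without the Dbp-high arrays Socs3 differed by -0.77 and Ptpn1 by -0.06, and without the Fos-high arrays by -0.67 and -0.23. Without both sets of arrays Socs3 turned to 0.15 and Ptpn1 was at -0.04. Of 28 measured genes of gluconeogenic enzymes and transport, 19 were higher and 9 lower (32.1% lower, beside 47.2% of all genes). Of these 0 passed, with a median of 0.03 (11 lower without the Dbp-high arrays and also without the Fos-high arrays). Pck2, the mitochondrial form of phosphoenolpyruvate carboxykinase, was at 6.45 ± 0.06 in penicillin livers and 6.66 ± 0.11 in control livers (SD, n = 6; difference -0.20, SE 0.06; limma, unadjusted p = 0.00434, adjusted p = 0.479). Slc25a10, the mitochondrial dicarboxylate carrier, was at 10.64 ± 0.14 in penicillin livers and 10.37 ± 0.13 in control livers (SD, n = 6; difference 0.27, SE 0.08; limma, adjusted p = 0.496). Pck2 differed by -0.17 without the Dbp-high arrays, -0.22 without the Fos-high arrays and -0.14 without both. Slc25a10 differed by 0.22, 0.23 and 0.14 under the same omissions.

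Genes listed as FOXO1 targets or as repressed by insulin stood mostly lower in penicillin livers. Of 24 measured, 20 were lower and 4 higher (83.3% lower, beside 47.2% of all genes), with a median difference of -0.15, beside 0.01 over all genes, and 0 passed. Outside the 5 members in this list, 16 of 19 were lower. Igfbp1, an IGF binding protein that insulin represses within hours, was at 9.27, 11.69 and 12.89 in penicillin livers, against 11.62, 13.04 and 13.85 in control livers. Control 1, control 3 and control 5, the Fos-high arrays, lay above every penicillin liver. Control 2 (12.71), control 4 (12.51) and control 6 (11.62) lay within the penicillin range. The difference was -1.53 (SE 0.54; limma, unadjusted p = 0.0136, adjusted p = 0.570). Angptl8, which insulin and feeding are known to raise and not lower, differed by -1.02 (SE 0.51; limma, adjusted p = 0.659). Without the Dbp-high arrays 20 of 24 were lower (beside 44.9% of all genes), with a median of -0.19, Igfbp1 at -1.25 and Angptl8 at -1.43. Without the Fos-high arrays 15 of 24 were lower (beside 53.1% of all genes), with a median of -0.05, Igfbp1 at -0.85 and Angptl8 at -0.00053. Igfbp1 was at 13.66, 13.85 and 13.38 on control 1, control 3 and control 5.

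Regulators of the response to glucagon and glucocorticoids gave 15 of 38 higher and 23 lower (60.5% lower, beside 47.2% of all genes). Of these 0 passed, with a median of -0.05. Without the Dbp-high arrays 20 were lower (beside 44.9% of all genes), and 21 without the Fos-high arrays (beside 53.1%). Creb1, the transcription factor activated by cAMP signalling, differed by -0.17 (SE 0.06; limma, adjusted p = 0.546), and Cebpa, which encodes the C/EBPalpha that TRIB1 protein is known to bring to degradation, by 0.26 (SE 0.10; limma, adjusted p = 0.571). Creb1 differed by -0.13 without the Dbp-high and -0.17 without the Fos-high arrays, and Cebpa by 0.19 and 0.22. The list of glycolysis and glycogen storage genes gave 21 of 28 higher and 7 lower (25.0% lower, beside 47.2% of all genes). Of these 0 passed, with a median of 0.08. Its lower genes numbered 12 of 28 without the Dbp-high arrays (median 0.05), near the 44.9% of all genes. They numbered 10 of 28 without the Fos-high arrays (median 0.02), beside 53.1% of all genes. Its smallest p-values were those of the phosphoglucomutases Pgm2 (-0.13, SE 0.07) and Pgm1 (0.11, SE 0.06), of opposite sign. Pgm2 was at -0.10 without the Dbp-high and -0.15 without the Fos-high arrays, and Pgm1 at 0.12 and 0.05. Of 16 clock genes 9 were higher and 7 lower (43.75% lower, beside 47.2% of all genes), with 0 passed. Their median of 0.12 turned to -0.04 without the Dbp-high arrays and was 0.23 without the Fos-high arrays. Hlf, a relative of Dbp, differed by 0.42 (SE 0.15; limma, adjusted p = 0.570) and Per3 by 0.90 (SE 0.55; limma, adjusted p = 0.731). Without the Dbp-high arrays Hlf differed by 0.36 and Per3 by 0.24, and without the Fos-high arrays by 0.24 and 0.89.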

How the data were processed

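RNA of 12 livers was labelled with a 3-prime amplification kit, per the labels' protocols. The authors made probeset intensities with RMA, per the submitters' processing notes, with no version or setting named. The deposited intensities are linear (4.92 to 36550), and log2 was taken here. RMA makes arrays alike in distribution, which removes a change shared by most genes. Of 45037 probesets other than controls, 34945 had 1 gene in the platform annotation; symbols were updated from RefSeq. Probesets with a mean under the median (4.73 in log2) were left out, and the brightest stood for each of 11899 genes. Detection calls were not used here, so a dim level cannot be told from background.

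Penicillin minus control was fitted with limma 3.58.1 in R 4.3.3 (lmFit and eBayes, two-sided), with Benjamini-Hochberg adjustment over all genes. Pairs of members were tested in Python 3.11.15 with numpy 2.4.6. Tested on simulated data (11899 genes, 50 changed at each fold), limma found 80% of 1.5-fold and 96% of 2-fold changes and made 4 false calls. The simulated noise had each gene's own SD but nothing shared between genes, and the changed genes were drawn at random. These rates therefore do not hold for noisier genes. The within-group SD had a median of 0.15 over all genes, against 0.45 for Irs2, 0.64 for G6pc and 1.36 for Trib1. Among the members only Fbp1 (0.08) lay below that median. The members, the lists and the sets of arrays left out were chosen with earlier results of these data known. Genes named were the 10 members, in each list the 2 of smallest p outside them, for each member the 2 most similar genes, and Dbp and Fos. Apoa1 was added to show the tissue, and S100a8, S100a9 and Csf3r to show what lay behind the neutrophil average.

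Alternatives were other filters, quantile normalization, median centring, a replicate block, array weights, other variance priors, other uses of probesets, an exact permutation test, and leaving out each array or set. At most 0.0998% of probesets had identical values in any pair of arrays, so none was a copy.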

Additional observations from a re-analysis of the deposited data

Results flagged for a closer look

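Among the 20 groups of 6 arrays formed by the 10 genes, 2 held an array far from the others of its group, with a gap to the nearest array larger, for the group's range, than Dixon's 95% critical value. Chance alone gives about 1 such group in 20. Foxo1 in penicillin 1 was at 9.50, with a gap of 0.56 to the next penicillin liver (8.94). G6pc in control 6 was at 11.26, with a gap of 1.66 to the next control liver (12.92). Both arrays are among the 4 with high Dbp. Penicillin 5 and penicillin 6 are too, with Foxo1 at 8.84 and 8.90. The part of the clock in these values was not tested.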

How the results depend on the processing

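Under every alternative run, 0 genes passed over all genes, in the pathway lists as among the members, and single gene differences kept their side of the threshold. The replicate block gave 0 calls (1214 genes at an unadjusted p under 0.05, beside 950 without it; smallest adjusted p = 0.0732); the labels do not tie same-numbered arrays to each other and not every such pair correlated above 0.1 (-0.26 to 0.39, 4 of 6 above it), so the arrays were not treated as paired, although 5 of 12 correlated best with their own number, a hint from the data and not the design. The block changed no call. Irs2 stayed negative, at -0.76 to -0.49 as each array was left out, as did Pck1 (-0.26 to -0.14), Ppargc1a (-0.44 to -0.21), Trib1 (-1.47 to -0.59) and G6pc (-0.50 to -0.040), while Slc2a2 (0.07 to 0.16) and Insr (0.02 to 0.13) stayed positive. Irs1 ran from -0.22 to 0.038, Foxo1 from -0.11 to 0.084 and Fbp1 from -0.030 to 0.022. Without the Dbp-high arrays the sign turned for Insr (-0.045), Irs1 (0.17), Foxo1 (-0.042) and Slc2a2 (-0.043). Without the Fos-high arrays it turned for Insr (-0.056), G6pc (0.18), Fbp1 (-0.030) and Trib1 (0.37). Without both sets, an alternative chosen after seeing the data that leaves 3 penicillin and 2 control arrays, it turned for Insr (-0.16), Irs1 (0.0054), Fbp1 (-0.024), Trib1 (0.49), Slc2a2 (-0.057) and Socs3 (0.15). Foxo1 was at -0.028 with array weights and -0.033 as the mean of its probesets, and 2 of its 3 other probesets gave -0.0024 and -0.10; the other Insr probesets gave -0.033 and -0.025. Fbp1 was at -0.012 with quantile normalization repeated. The cause of these turns was not tested. None of the differences that turned had passed, and with 6 arrays a group the intervals of G6pc and Trib1 are wide.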
